A study of Mus musculus with 6 samples.

Results

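The genes described here encode the common protein parts of the splicing machinery: the Sm and LSm proteins, the A, A', B'' and C proteins of the U1 and U2 particles, splicing factors 3A and 3B, the U2 auxiliary factor and the SR proteins. They were taken by symbol (Snrp followed by a letter, Sf3a, Sf3b, Srsf, Lsm and U2af genes, with the imprinted gene Snrpn left out), with no measured value used, and 44 of the 49203 gene symbols in the tables met that rule. Earlier results of these data were known when the genes were chosen. All 44 passed the filter on low values and are among the 15095 genes tested. The rule takes in a few genes whose products do other work: Lsm1 belongs to a cytoplasmic ring that promotes decapping of messenger RNA, Lsm10 and Lsm11 belong to the U7 particle that cuts histone transcripts, and Lsm12 is not a spliceosome protein. It does not take in genes named Snrnp, such as those of the U1 70K protein and the U5 helicase, which are counted with the rest of the spliceosome.

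Introns are removed from pre-messenger RNA by the spliceosome, which is built anew on each intron from small nuclear ribonucleoprotein particles. Sm proteins form a ring around the U1, U2, U4 and U5 RNAs, and LSm proteins form a related ring around the U6 RNA. The U2 auxiliary factor and splicing factor 3B recognise the end of the intron and the branch point, and SR proteins bind exons and set how often a splice site is used. Many SR protein genes limit their own output through transcripts that keep an intron or carry a premature stop.

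The study compared Sertoli cell lines, Sertoli cells being the somatic nurse cells of the seminiferous tubule, that differ in whether a GFP reporter on the mouse Y chromosome is on. Total RNA was sequenced from 3 GFP-positive libraries (2, 4 and 7, phenotype Green) and 3 GFP-negative libraries (9, 11 and M, phenotype Non-green). Strain, age, the promoter of the reporter, and whether libraries came from separate clones, animals or cultures are not given in the labels, so any p-value rests on the spread among these 6 libraries, which may be technical. The reporter itself was not analysed here. Below, 6 values in a row are scaled FPKM (fragments per kilobase of a transcript, normalised to library depth by the authors and then scaled between libraries), a level per length, in the order GFP-positive 2, 4, 7 and GFP-negative 9, 11, M. A log2 difference is GFP-positive minus GFP-negative on the log2(scaled FPKM + 0.5) scale, which understates the change of genes with low levels.

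The libraries differed in ways that touch every result below. Aligned bases ran from 8.25 to 11.8 Gb per library, and the deposited FPKM summed to 668557 to 747404 in the GFP-positive but to 292449 to 470070 in the GFP-negative libraries. Of 21 Sertoli markers 20 were tested, 1 was higher and 4 were lower in the GFP-positive libraries, with summed levels of 2112 to 3786 against 1207 to 3877 scaled FPKM. The lower ones were Sox9, Gata4, Gdnf and Vim (log2 difference -1.91, -1.81, -1.26 and -1.11), and the higher one was Dmrt1 (1.10). The other Sertoli markers tested, among them Wt1 (-0.28), Amh (0.02) and Clu (0.24), did not pass. Rhox5 was at or near 0 in all 6 libraries. Of 20 germ cell markers 12 were tested, 7 were higher and 1 was lower, with sums of 134 to 186 against 99.2 to 116 scaled FPKM. Most of the GFP-negative sums was Uchl1 (18.5, 97.1, 71.9, 91.6, 96.1 and 98.2), which did not pass. The higher ones were Tex101 (log2 difference 4.87), Mael (4.56), Dazl (3.53), Dnd1 (2.95), Ddx4 (2.59), Gfra1 (2.01) and Sycp3 (2.00), and Etv5 was lower (-1.35). Tex101 was at 30.6, 12.8, 16.0, 0.145, 0.188 and 0.115 scaled FPKM. The spermatid markers Prm1 and Prm2 were at 0 in all 6 libraries. Of 12 cell division markers 7 were higher, with sums of 205 to 331 against 57.4 to 113 scaled FPKM. Fibroblast markers summed to 89.7 to 149 against 81.9 to 1294, peritubular myoid markers to 136 to 1939 against 404 to 990, Leydig markers to 35.8 to 86.1 against 72.4 to 88.6, macrophage markers to 2.70 to 3.09 against 4.08 to 9.53, and endothelial markers to 3.47 to 6.31 against 7.62 to 12.5 scaled FPKM. In these last lists no marker passed as higher. Those that passed as lower were Col1a1 (log2 difference -4.25), Myh11 (-2.49), Actg2 (-2.19), Lyz2 (-1.87) and Insl3 (-1.63). Col1a1, Myh11, Actg2 and Insl3 were highest in GFP-negative 11 (686, 17.2, 27.7 and 3.54 scaled FPKM), and Lyz2 in GFP-negative 9 (6.11). Acta2 (-0.10) and Tagln (0.75), the myoid markers with the highest levels, did not pass. The part of these marker differences in the results on splicing factor genes was not tested.

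The sequence upstream of the start of 4 genes is shown first, because these are the members with the largest increases that have a single promoter entry in the RefSeq table, and their products sit in the LSm and Sm rings. Each is the 150 bases before the RefSeq start, read along the gene's strand, in build GRCm38.p6: Lsm5 at chr6:56704700-56704849 (minus strand), Snrpg at chr6:86371390-86371539 (plus strand), Snrpe at chr1:133610281-133610430 (minus strand) and Snrpd2 at chr7:19149688-19149837 (plus strand). Capitals mark matches, on either strand, to the motifs CCGGAAG (ETS factors), CCAAT (NF-Y), the TATA box element TATAAA and TGACGTCA (cyclic AMP response element).
Lsm5: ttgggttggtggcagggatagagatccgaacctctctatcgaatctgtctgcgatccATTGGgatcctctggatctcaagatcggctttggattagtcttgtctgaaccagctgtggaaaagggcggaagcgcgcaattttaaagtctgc
Snrpg: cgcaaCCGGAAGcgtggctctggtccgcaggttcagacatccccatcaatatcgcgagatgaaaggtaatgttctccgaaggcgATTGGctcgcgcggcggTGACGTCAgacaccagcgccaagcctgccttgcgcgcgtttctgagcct
Snrpe: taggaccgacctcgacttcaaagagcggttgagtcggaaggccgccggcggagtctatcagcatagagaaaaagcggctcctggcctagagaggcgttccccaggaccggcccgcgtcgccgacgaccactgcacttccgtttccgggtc
Snrpd2: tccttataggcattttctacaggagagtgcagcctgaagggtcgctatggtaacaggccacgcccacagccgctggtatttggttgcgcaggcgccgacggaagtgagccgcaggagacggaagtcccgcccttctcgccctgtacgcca

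The Snrpg window held matches to the ETS motif, the CCAAT motif (on the other strand) and the cyclic AMP response element, the Lsm5 window held the CCAAT motif on the other strand, and the Snrpe and Snrpd2 windows held none of these letters. Of the 44 genes, 36 had a promoter entry. CCGGAAG was present in 10 of those 36 windows (27.8%), against 5.52% of 32851 RefSeq promoters of the same length. CCAAT was present in 9 (25.0%, against 24.5%), TATAAA in 3 (8.33%, against 7.57%) and TGACGTCA in 3 (8.33%, against 1.36%). Of the 12 matched genes that were higher in the GFP-positive libraries 4 held CCGGAAG, and so did Sf3a1, Sf3a2 and Sf3b2, whose levels were lower in the GFP-positive libraries without passing the test. The 32851 promoters were not limited to genes that passed the filter on low values, as all 44 genes did. These shares thus compare unlike sets and cannot be read as particular to splicing factor genes. A match to these letters is a description and was not tested as a binding site.

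Among the 44 genes, 14 were higher and 1 was lower in the GFP-positive libraries (limma, Benjamini-Hochberg adjusted p under 0.05). Across all genes tested, 25.9% passed, 14.5% higher and 11.4% lower. By role, 3 of 7 Sm core genes, 5 of 8 genes of the LSm rings and 2 of 4 genes of U1 and U2 proteins were higher. Of the others, 2 of 9 splicing factor 3 genes, 1 of 3 further LSm genes and 1 of 11 SR protein genes were higher, and Sf3b4 was the gene that was lower. The median log2 difference over the 44 genes was 0.44, against 0.02 over all genes tested. In these bulk libraries fewer cells of a type and less RNA per cell cannot be told apart.

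**Figure D1:**
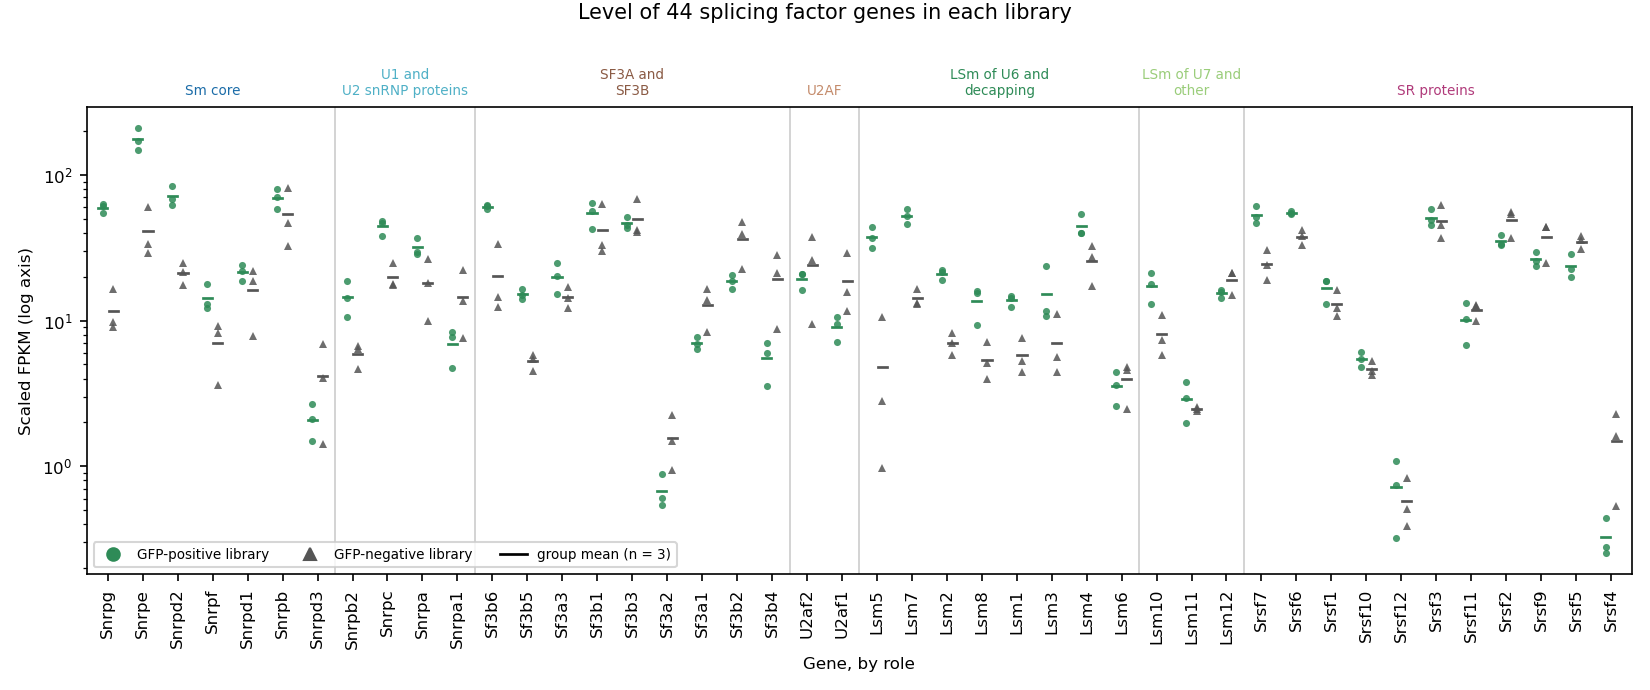
Scaled FPKM (log axis) of the 44 genes in each library, with GFP-positive libraries as green circles, GFP-negative libraries as grey triangles and the mean of each group of 3 as a short line; genes are ordered by role. Snrpe is at 148.9 to 208.8 in the GFP-positive and 29.3 to 59.9 in the GFP-negative libraries, whereas the SR protein genes apart from Srsf6 and Srsf7 show group means close together or lower in the GFP-positive libraries for several members.

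The counts of calls depended on the scaling. When the FPKM of every library was made to sum to the same total, 3 of the 44 genes were higher (Lsm5, Snrpe and Snrpg) and 15 lower, where 45.4% of all genes tested passed (3.63% higher, 41.8% lower). That scaling moved the median over all genes tested from 0.02 to -0.87 and the median over the 44 genes to -0.59, so that the median of the 44 genes lay 0.28 above that of all genes, against 0.42 in the fit used here. None of the 15 genes that passed changed sign under that scaling. Single libraries also mattered. Without GFP-negative M 5 of the 44 genes were higher and none was lower, where 2.88% of all genes tested passed (2.15% higher, 0.725% lower). Leaving out GFP-positive 7 gave 6 higher and none lower, where 3.57% of all passed (2.42% higher, 1.15% lower). Leaving out GFP-negative 9 gave 14 higher and 9 lower, where 37.0% passed (19.1% higher, 17.9% lower). Lsm2, Lsm7, Snrpd2, Snrpe and Snrpg passed in each of the 6 fits that left out 1 library.

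The Sm core genes encode the proteins of the ring on U1, U2, U4 and U5. Summed over the 7 genes, their level was 413.6 ± 17.0 scaled FPKM in the GFP-positive and 154.9 ± 28.1 in the GFP-negative libraries (mean ± SD, n = 3 each). Snrpe (chromosome 1, 133531609 to 133538029 in build mm39), the gene of protein E, was at 208.8, 148.9, 169.5, 59.9, 33.8 and 29.3 scaled FPKM, and had the highest mean level of the 44 genes. Every GFP-positive library lay above every GFP-negative one, with a log2 difference of 2.14 (SE 0.33, limma adjusted p = 0.00743). Snrpg (chromosome 6, 86348286 to 86356310), the gene of protein G, was at 62.8, 54.6, 61.1, 16.4, 9.73 and 9.04 scaled FPKM. Its GFP-positive values were close together and far from the others, a log2 difference of 2.34 (SE 0.29, limma adjusted p = 0.00579). Snrpd2 (chromosome 7, 18883647 to 18887467), the gene of protein D2, was at 61.8, 83.4, 68.2, 21.5, 25.0 and 17.5 scaled FPKM, again without overlap (log2 difference 1.72, SE 0.26, limma adjusted p = 0.00742).

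The other 4 Sm core genes did not pass. Snrpb, the gene of proteins B and B', was at 58.0, 79.5, 70.5, 32.6, 81.3 and 46.7 scaled FPKM. GFP-negative 11 had the highest value of all 6 libraries, and the log2 difference was 0.46 (SE 0.36, limma adjusted p = 0.348). Snrpf (log2 difference 1.06, limma adjusted p = 0.0593) and Snrpd1 (0.51, adjusted p = 0.327) were also higher in the mean, and Snrpd3 was lower (-0.67, adjusted p = 0.307). Snrpd3 was the Sm gene with the lowest level, 2.08 ± 0.583 against 4.14 ± 2.76 scaled FPKM (n = 3 each), and it passed as lower without GFP-negative 9 (adjusted p = 0.0289). Of the proteins of this ring, the genes of E, G and D2 thus passed and those of B, D1, D3 and F did not, and differences between these genes were not tested. Several Sm and LSm genes have processed pseudogenes, so reads shared with such copies make their levels uncertain.

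**Figure D2:**
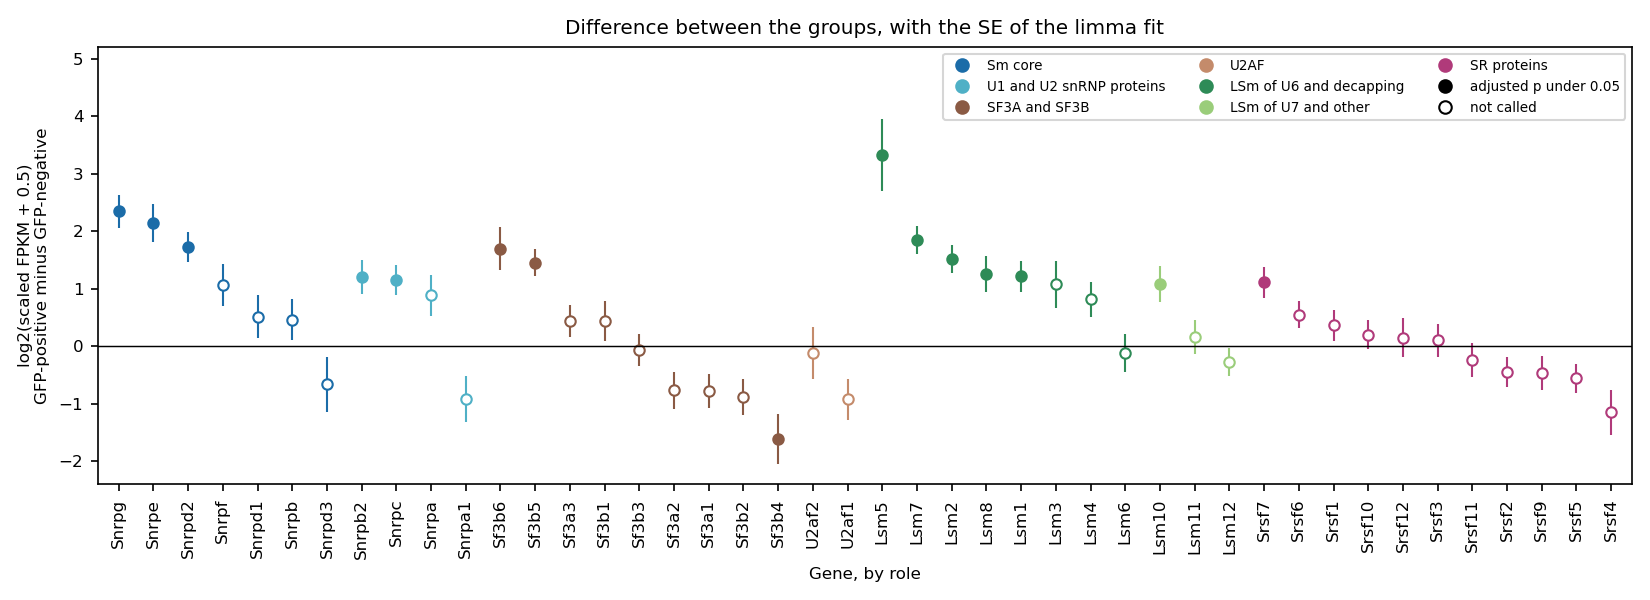
Log2 difference between the groups for the 44 genes (points, bars are the SE of the limma fit, n = 3 libraries each), coloured and ordered by role, with filled points for genes that passed. Lsm5 (3.32), Snrpg (2.34) and Snrpe (2.14) lie highest, and Sf3b4 (-1.62) is the filled point below 0.

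Of the U1 and U2 particle proteins, Snrpc and Snrpb2 were higher. Snrpc (chromosome 17, 28057124 to 28070942), which encodes the U1 C protein that helps U1 hold the start of the intron, was at 38.3, 48.3, 47.1, 17.6, 24.7 and 17.8 scaled FPKM. The groups did not overlap, and the log2 difference was 1.15 (SE 0.26, limma adjusted p = 0.0174). Snrpb2 (chromosome 2, 142904959 to 142914773), the gene of the U2 B'' protein, was at 18.8, 10.5, 14.3, 6.73, 4.66 and 6.40 scaled FPKM. All GFP-negative values lay below all GFP-positive ones, with a log2 difference of 1.20 (SE 0.29, limma adjusted p = 0.0215). The call on Snrpc was lost without GFP-negative M or GFP-positive 4 or 7 (limma adjusted p = 0.0850, 0.0520 and 0.0813), and that on Snrpb2 without GFP-negative 11 or M or GFP-positive 2 or 7 (0.0540, 0.0786, 0.0641 and 0.0844).

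Snrpa, which encodes the U1 A protein, was at 28.6, 36.9, 29.7, 9.97, 26.3 and 18.2 scaled FPKM. The groups did not overlap but GFP-negative 11 came close, and the gene did not pass (log2 difference 0.88, SE 0.36, limma adjusted p = 0.0938); it passed without GFP-negative 11 (adjusted p = 0.0447). Snrpa1, the gene of the U2 A' protein that binds U2 together with the B'' protein, lay the other way, at 6.91 ± 1.93 against 14.5 ± 7.40 scaled FPKM (n = 3 each, log2 difference -0.92, limma adjusted p = 0.114), and passed as lower without GFP-negative 9 (adjusted p = 0.0216). The assembly places Snrpa1 in a locus shared with Pcsk6, which makes its level uncertain.

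The 9 genes of splicing factors 3A and 3B moved in both directions. Sf3b6 (chromosome 12, 4867544 to 4877659), whose product contacts the branch point adenosine, was at 61.6, 58.3, 61.0, 33.7, 12.4 and 14.5 scaled FPKM. The GFP-positive libraries were nearly equal and GFP-negative 9 lay between them and the other two GFP-negative libraries (log2 difference 1.70, SE 0.37, limma adjusted p = 0.0162). Sf3b5 (chromosome 10, 12881087 to 12884927), which encodes a small subunit of the 3B complex, was at 14.1, 16.6, 14.96, 5.47, 5.83 and 4.54 scaled FPKM. Both groups were tight, and the log2 difference was 1.45 (SE 0.24, limma adjusted p = 0.00823).

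Sf3b4 (chromosome 3, 96079648 to 96084880), which encodes the subunit that holds the 3B complex to RNA upstream of the branch point, was at 3.56, 7.00, 5.98, 8.76, 28.1 and 21.1 scaled FPKM. GFP-negative 9 was only just above the GFP-positive libraries, and the log2 difference was -1.62 (SE 0.44, limma adjusted p = 0.0296). This call was lost in each of the 5 fits that left out a library other than GFP-negative 9 (limma adjusted p between 0.0582 and 0.113) and had an adjusted p of 0.00445 without that one. Sf3b5 lost its call without GFP-negative M (0.0536), and Sf3b6 without GFP-negative M or GFP-positive 7 (0.0773 and 0.0672).

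The large scaffold subunits did not pass. Sf3b1, the subunit that clamps the branch site, was at 64.2, 42.7, 56.8, 63.3, 29.9 and 32.8 scaled FPKM. GFP-negative 9 was as high as the GFP-positive libraries, and the log2 difference was 0.44 (SE 0.34, limma adjusted p = 0.352). Sf3b3, the other large subunit of the complex, was at 51.4, 43.1, 45.1, 42.0, 67.9 and 40.5 scaled FPKM, with overlapping groups (log2 difference -0.07, SE 0.28, limma adjusted p = 0.866). Sf3a1 (-0.79), Sf3a2 (-0.77) and Sf3b2 (-0.89) were lower without overlap between the groups and did not pass (limma adjusted p = 0.0777, 0.103 and 0.0654), and all of them passed without GFP-negative 9 (0.0135, 0.0380 and 0.00880). Sf3a3 was at 0.44 (adjusted p = 0.248). Sf3a2 shares an assembled locus with Amh, and its level, 0.678 ± 0.179 against 1.56 ± 0.668 scaled FPKM (n = 3 each), is uncertain for that reason.

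Neither subunit gene of the U2 auxiliary factor passed. U2af2, whose product binds the pyrimidine tract at the end of the intron, was at 20.8, 21.0, 16.2, 9.40, 37.2 and 26.2 scaled FPKM. GFP-negative 9 was the lowest and GFP-negative 11 the highest of the 6 libraries, and the log2 difference was -0.12 (SE 0.46, limma adjusted p = 0.852). U2af1, whose product binds the AG at the intron end, was at 7.17, 9.44, 10.7, 11.5, 29.3 and 15.7 scaled FPKM. The groups did not overlap, yet GFP-positive 7 and GFP-negative 9 were close, and the log2 difference was -0.92 (SE 0.36, limma adjusted p = 0.0849); without GFP-negative 9 it passed (adjusted p = 0.0257).

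The LSm genes held the largest difference. Summed over the 8 genes of the rings for U6 and for decapping, the level was 201.2 ± 10.6 scaled FPKM in the GFP-positive and 73.9 ± 4.01 in the GFP-negative libraries (mean ± SD, n = 3 each). Lsm5 (chromosome 6, 56678048 to 56681695), a part of both rings, was at 43.8, 31.7, 37.1, 10.5, 0.970 and 2.82 scaled FPKM. The GFP-negative libraries differed widely among themselves, with GFP-negative 9 well above 11 and M, and all were below the GFP-positive ones (log2 difference 3.32, SE 0.62, limma adjusted p = 0.0112). Lsm7 (chromosome 10, 80688655 to 80691043), also of both rings, was at 58.3, 51.8, 46.1, 13.01, 16.4 and 13.3 scaled FPKM, with little spread in either group (log2 difference 1.84, SE 0.24, limma adjusted p = 0.00632). Lsm2 (chromosome 17, 35200838 to 35204867), likewise of both, was at 21.4, 19.0, 22.1, 5.81, 7.00 and 8.22 scaled FPKM, without overlap (log2 difference 1.52, SE 0.24, limma adjusted p = 0.00790).

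The 2 genes whose products tell the rings apart, Lsm8 in the nuclear one and Lsm1 in the cytoplasmic one, were both higher. Lsm1 (chromosome 8, 26275316 to 26294003) was at 14.7, 14.2, 12.4, 7.61, 5.25 and 4.45 scaled FPKM. The groups did not overlap, and the log2 difference was 1.22 (SE 0.27, limma adjusted p = 0.0169). Lsm8 (chromosome 6, 18848578 to 18855750) had means of 13.6 ± 3.69 and 5.40 ± 1.56 scaled FPKM (n = 3 each) and a log2 difference of 1.25 (SE 0.31, limma adjusted p = 0.0237). Lsm5 and Lsm1 lost their calls without GFP-negative M (limma adjusted p = 0.0575 and 0.0844) and without GFP-positive 7 (0.0511 and 0.0644). Lsm8 lost it without GFP-negative 11 or M or GFP-positive 2 or 7 (0.0600, 0.0939, 0.0699 and 0.0995).

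Lsm4, Lsm3 and Lsm6 complete the rings and did not pass. Lsm4 was at 39.9, 54.0, 39.7, 17.2, 32.6 and 27.4 scaled FPKM, with GFP-negative 9 the lowest and no overlap (log2 difference 0.81, SE 0.30, limma adjusted p = 0.0769). Lsm3 had a log2 difference of 1.08 (adjusted p = 0.0809), with GFP-negative M above GFP-positive 2. Lsm6 had one of -0.12 (adjusted p = 0.798), at 3.54 ± 0.924 against 3.96 ± 1.29 scaled FPKM (n = 3 each).

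Outside these rings, Lsm10 was higher. Lsm10 (chromosome 4, 125990416 to 125992377), which replaces an Sm protein in the U7 particle, was at 12.9, 21.1, 17.7, 10.9, 5.81 and 7.33 scaled FPKM. GFP-positive 2 and GFP-negative 9 were close, and the log2 difference was 1.07 (SE 0.31, limma adjusted p = 0.0363), a call lost without GFP-negative 11 or M or GFP-positive 4 or 7 (0.0902, 0.124, 0.106 and 0.121). Lsm11, its partner in that particle, was at 2.90 ± 0.906 against 2.47 ± 0.0871 scaled FPKM (n = 3 each, log2 difference 0.16, limma adjusted p = 0.701). Lsm12 was at 16.3, 14.4, 15.7, 15.03, 21.2 and 21.1 scaled FPKM, with GFP-negative 9 among the GFP-positive values (log2 difference -0.28, SE 0.25, limma adjusted p = 0.411).

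Of the 11 SR protein genes, Srsf7 was the one that passed, and their summed level was 276.9 ± 19.3 against 263.1 ± 29.96 scaled FPKM (mean ± SD, n = 3 each). Srsf7 (chromosome 17, 80507509 to 80514736), which encodes a zinc-knuckle SR protein, was at 51.0, 47.0, 60.8, 30.5, 24.0 and 18.9 scaled FPKM. The groups did not overlap, and the log2 difference was 1.11 (SE 0.27, limma adjusted p = 0.0215), a call lost without GFP-negative M or GFP-positive 2 or 7 (0.103, 0.0515 and 0.0996). Srsf3, the smallest classical SR protein, was at 45.2, 48.9, 58.4, 36.8, 62.5 and 45.5 scaled FPKM. GFP-negative 11 was the highest and GFP-negative 9 the lowest, and the log2 difference was 0.10 (SE 0.28, limma adjusted p = 0.812). Srsf6 was at 53.6, 54.4, 56.7, 38.1, 41.7 and 32.9 scaled FPKM, without overlap but with a difference too small to pass (log2 difference 0.55, SE 0.24, limma adjusted p = 0.113).

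The remaining SR protein genes had log2 differences from -1.15 (Srsf4, limma adjusted p = 0.0563) to 0.36 (Srsf1, adjusted p = 0.338), and none passed. Srsf4 was low, at 0.326 ± 0.101 against 1.48 ± 0.882 scaled FPKM (n = 3 each), and passed as lower without GFP-negative 9 (adjusted p = 0.00769), as did Srsf9 (log2 difference -0.47, adjusted p = 0.248 with all libraries and 0.0392 without it). Srsf2 and Srsf5 were at -0.46 and -0.56 (adjusted p = 0.218 and 0.127). Srsf10, Srsf11 and Srsf12 were at 0.20, -0.25 and 0.15.

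Within the GFP-negative group, the members did not keep one order of libraries. GFP-negative 9 was the highest of the 3 for 9 of the 14 genes that passed upward, yet the lowest for 25 of all 44 genes, and GFP-negative 11 was the highest for 27 of 44. Sf3b6 and Lsm5 (higher in 9) and U2af2 and Snrpb (lower in 9) show both patterns. Groups did not overlap for 25 of the 44 genes, where 45.7% of all genes tested had groups without overlap.

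The differences went with transcript length, which for the 44 genes spanned 507 nt (Snrpe) to 6726 nt (Srsf1), taken as the mean over a gene's transcripts weighted by FPKM. Over the 44 genes the log2 difference and log2 length had a Pearson correlation of -0.47 and a Spearman correlation of -0.42 (across genes, which share libraries and are no independent replicates), and over all 15095 genes tested of -0.48 and -0.49. Of the 11 members under 1000 nt 6 were higher, with a median log2 difference of 1.08, whereas 41.7% of all tested genes of that length were higher, with a median of 0.95. From 1000 to under 2000 nt 5 of 15 members were higher (21.3% of all), from 2000 to under 3000 nt 2 of 6 (9.18%) and at 3000 nt and over 1 of 12, Sf3b5 (2.74%). The part of length in the results was not tested.

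**Figure D3:**
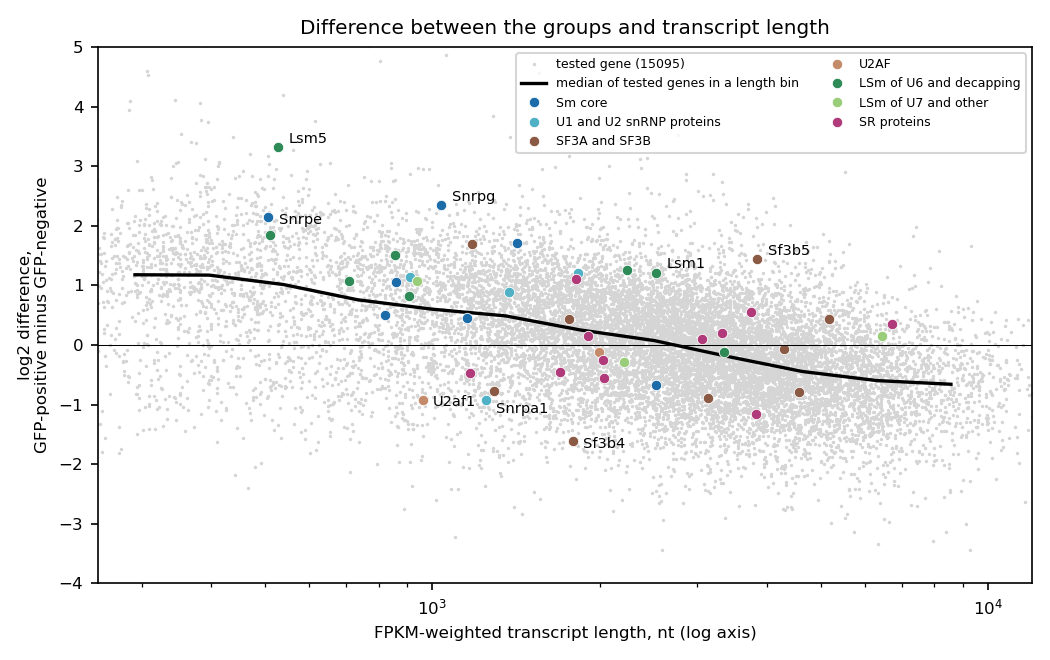
Log2 difference between the groups against FPKM-weighted transcript length (log axis) for all 15095 tested genes (grey), their median per length bin (black line) and the 44 genes coloured by role; tested genes beyond the axis limits are not drawn. The black line falls with length; Lsm5, Snrpg and Snrpe lie above it among short transcripts, Sf3b5 lies above it among long ones, and U2af1, Snrpa1 and Sf3b4 lie below it.

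With the trend on length over all genes subtracted, 7 of the 44 genes were higher, where 5.53% of all tested genes were, and 3 were lower, where 7.37% were. The 7 were Lsm5 (log2 difference 2.43, limma adjusted p = 0.0359), Snrpg (1.78, 0.0149), Sf3b5 (1.73, 0.0149), Snrpd2 (1.32, 0.0204), Snrpe (1.24, 0.0390), Lsm1 (1.20, 0.0299) and Srsf1 (0.95, 0.0463). Of these, 6 also passed without the subtraction and Srsf1 did not. Lsm7 and Lsm2, which passed in every fit with 1 library left out, were at 0.94 and 0.85 and did not pass (0.0515 and 0.0601). Calls were also lost for Lsm8 (1.15, limma adjusted p = 0.0503), Sf3b6 (1.20, 0.0587), Srsf7 (0.87, 0.0640) and Snrpb2 (0.96, 0.0663). Snrpc (0.52, limma adjusted p = 0.182) and Lsm10 (0.46, 0.284) lost theirs by a wider margin. The lower genes were Sf3b4 (-1.87, 0.0304), U2af1 (-1.52, 0.0333) and Sf3a2 (-1.21, 0.0432).

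The 44 genes are listed with 253 transcripts, of which 131 passed the filter. Among them 9 were higher and 1 was lower (limma over 34518 transcripts, adjusted p under 0.05), where 6.11% of all transcripts tested passed, 3.50% higher and 2.61% lower. The passing transcripts were mostly the leading protein-coding one of a gene that passed. ENSMUST00000166915 of Snrpe was at 205.4, 145.1, 164.5, 58.5, 30.8 and 27.1 scaled FPKM (log2 difference 2.20, SE 0.37, limma adjusted p = 0.0297), which is nearly all of the gene's level. ENSMUST00000089558 of Snrpg had a log2 difference of 2.45, ENSMUST00000049294 of Snrpd2 of 1.72, ENSMUST00000170382 of Lsm5 of 3.31, ENSMUST00000035775 of Lsm7 of 1.99, ENSMUST00000114011 of Lsm2 of 1.61, ENSMUST00000105139, the single transcript of Sf3b5, of 1.45 and ENSMUST00000063417 of Srsf7 of 1.39. Another 2 SR protein transcripts passed whose genes did not, and both are named because they complete the count: ENSMUST00000107920 of Srsf1, at 1.98, 2.89, 1.10, 0, 0 and 0.447 scaled FPKM (1.94, limma adjusted p = 0.0422), and ENSMUST00000110356 of Srsf5, at 2.16, 2.05, 1.69, 5.43, 4.37 and 7.05 (-1.29, adjusted p = 0.0481). All 10 calls were lost in each fit that left out a library other than GFP-negative 9.

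By annotated transcript type, protein-coding transcripts held a median of 61.0% of the level of the 11 SR protein genes and of 96.2% of the 7 Sm core genes, over all 6 libraries. Lsm8 (57.8%), Sf3b1 (68.9%) and U2af1 (66.6%) were the ring and branch site genes with the lowest coding share. These shares are estimates from short reads, and reads can pass between overlapping isoforms.

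Retained-intron transcripts of the SR protein genes did not move one way. In Srsf5 they held 42.8%, 54.2%, 51.7%, 27.7%, 35.8% and 27.4% of the level, 49.6% ± 6.0 against 30.3% ± 4.78 (SD, n = 3 each), higher in every GFP-positive library. In Srsf2 they held 39.1%, 36.5%, 41.4%, 29.7%, 15.8% and 11.1%, again higher without overlap, but 16.7%, 13.6%, 18.1%, 18.1%, 10.7% and 10.4%, with overlapping groups, once the newly assembled isoform was counted. In Srsf7 they held 16.6%, 11.4%, 13.9%, 22.9%, 21.5% and 25.5%, lower in every GFP-positive library, and in Srsf3 20.3% ± 1.73 against 27.2% ± 2.46. Transcripts of Srsf3 marked for nonsense-mediated decay held 15.3% ± 2.90 against 11.4% ± 8.44, with overlap, and those of Srsf6 21.0% ± 10.4 against 19.1% ± 2.73. These shares were not tested between the groups.

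**Figure D4:**
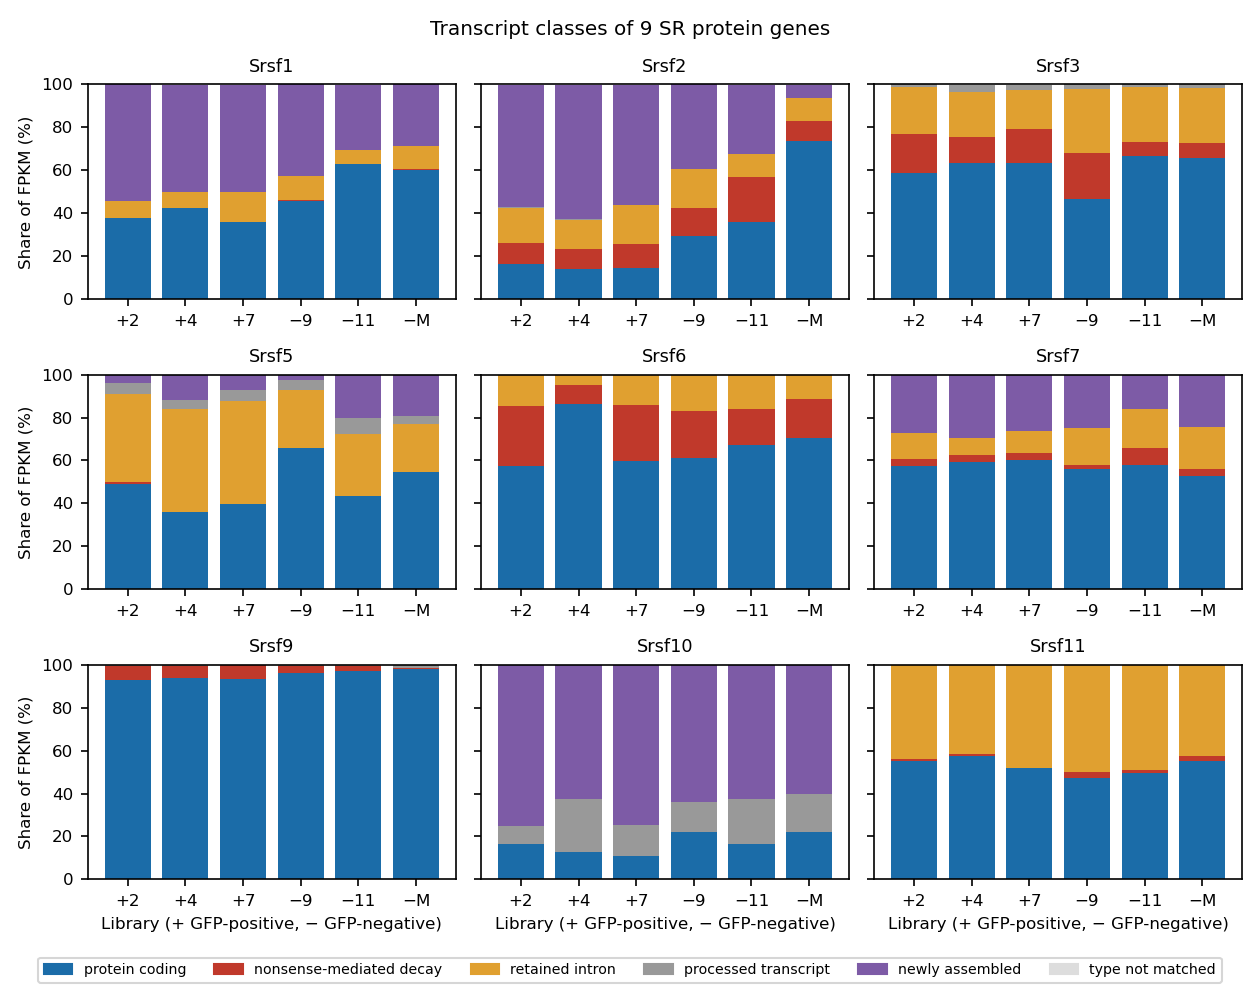
Share of a gene's FPKM (%) by transcript type in each library (+ GFP-positive, − GFP-negative) for 9 SR protein genes, with newly assembled isoforms counted. In Srsf2 the newly assembled isoform (purple) takes 56.2% to 62.8% in the GFP-positive and 6.48% to 39.2% in the GFP-negative libraries, and in Srsf5 retained-intron transcripts (yellow) take more in the GFP-positive libraries.

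The deposited tables also list newly assembled isoforms without a gene name at the loci of 7 of these genes, 15 in all, which the sums above leave out. Counting them turned the direction of Srsf2, from a log2 difference of -0.46 to 0.36 (limma adjusted p = 0.283), and 1 such isoform was at 49.9 ± 5.50 against 17.8 ± 12.1 scaled FPKM (n = 3 each). Srsf1 then passed (0.81, limma adjusted p = 0.0487), and 15 genes were higher and 1 was lower, where 30.3% of all genes in that fit passed (16.6% higher, 13.7% lower). Srsf7 was at 73.5 against 31.4 scaled FPKM with its new isoforms counted (1.24, limma adjusted p = 0.0134), and no gene lost its call.

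The share of a gene's level in its leading transcript was compared for 41 of the 44 genes. Groups did not overlap for 14 of them, where 20.5% of 11204 genes had groups without overlap. Snrpa had the widest gap, 66.9% ± 12.8 against 41.6% ± 6.24 in ENSMUST00000122202 (SD, n = 3 each). That transcript has 7 exons and 1362 nt and ENSMUST00000080356 of the same gene 7 exons and 1365 nt, so reads can pass between them. The shares leave out newly assembled isoforms. Once counted, such an isoform held 42.7% of Snrpa in GFP-negative 9 and none in the other libraries. The leading transcript held more in the GFP-positive libraries also in Lsm8 (65.4% against 47.6%), Sf3a2 (61.0% against 46.6%) and Lsm3 (53.8% against 40.8%), and less in Sf3a1 (82.5% against 95.1%), Sf3b4 (79.0% against 94.3%) and Srsf2 (22.9% against 47.8%). Once counted, the newly assembled isoform of Srsf2 held 58.7% against 26.0%. The named transcript of Srsf2 was thus not the leading one in the GFP-positive libraries. The exact two-sided permutation test on 3 against 3 libraries cannot go below 0.1, so none could pass, and the smallest Benjamini-Hochberg adjusted p over the 41 genes was 0.293.

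The rest of the splicing machinery was compared through 118 further genes in 9 lists, chosen with earlier results of these data known. Of these 17 were higher (14.4%, against 14.5% of all genes tested) and 23 were lower (19.5%, against 11.4%) in the GFP-positive libraries, with a median log2 difference of -0.09. The same shares over all genes are the background of each list below. Genes lower in the GFP-positive libraries were most frequent among the hnRNP genes, whose products coat pre-messenger RNA: 7 of 22 were lower and 1 was higher, with a median of -0.67. Hnrnpc, which binds uridine runs, was the one higher (101.8, 91.3, 93.1, 34.0, 32.9 and 37.5 scaled FPKM, log2 difference 1.44, limma adjusted p = 0.00808). Hnrnpul1 (-2.31) and Hnrnph1 (-1.06) were lower, and their groups did not overlap. Whether these lists differ from the 44 genes was not tested.

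Partners of the U2 particle moved both ways, as the 3A and 3B genes did: of 10 genes 1 was higher and 3 were lower. Phf5a, a small subunit of the 3B complex outside the symbol rule, was at 30.8, 29.1, 33.9, 13.1, 18.9 and 12.02 scaled FPKM (log2 difference 1.09, limma adjusted p = 0.0204). Sf1, which binds the branch point before U2 does, was at 5.81, 6.59, 5.83, 14.6, 27.4 and 20.9 (-1.66, limma adjusted p = 0.00924), and Rbm17 was also lower (-1.88, adjusted p = 0.0254). Of the 3B subunit genes, Sf3b5, Sf3b6 and Phf5a were thus higher and Sf3b4 was lower. With the length trend subtracted, Sf3b6 (1.20, limma adjusted p = 0.0587) and Phf5a (0.77, 0.0768) did not pass. Sf3b5 (1.73, limma adjusted p = 0.0149), Sf3b4 (-1.87, 0.0304) and Sf1 (-1.63, 0.0164) passed there. Whether these genes differ from each other was not tested.

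Of 21 genes of U5 and the tri-snRNP 4 were higher and 4 were lower. Ppih, a cyclophilin of the tri-snRNP, was at 36.7, 29.9, 43.0, 10.9, 5.78 and 5.69 scaled FPKM (log2 difference 2.27, limma adjusted p = 0.00675) and Snrnp27 was also higher (1.43, adjusted p = 0.0109). Prpf8, the large protein at the catalytic centre, was at 15.6, 17.4, 13.3, 35.3, 61.6 and 38.8 scaled FPKM (-1.49, limma adjusted p = 0.0120). Their transcripts differ in length, 868 nt for Ppih, 879 nt for Snrnp27 and 7406 nt for Prpf8. Ppih also passed with the length trend subtracted (1.61, limma adjusted p = 0.0190), whereas Snrnp27 (0.78, 0.0777) and Prpf8 (-0.84, 0.0789) did not. Of 20 genes of the Prp19 complex, its partners and the catalytic helicases 5 were higher and 4 lower, among them Syf2 (1.86), Rbm22 (-1.92) and the second-step factor Slu7 (-1.33).

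Of 11 genes that assemble Sm rings (the SMN complex and its partners) 3 were higher and none was lower: Gemin2 (log2 difference 1.21, limma adjusted p = 0.0153), which holds Sm proteins before they meet the RNA, Gemin6 (1.14, adjusted p = 0.0304) and Clns1a (0.93, adjusted p = 0.0285), which delivers Sm proteins to the complex. Clns1a was at -0.0814 under equal FPKM sums, where the median over all genes was -0.87. Once the length trend was subtracted, Clns1a passed (1.13, limma adjusted p = 0.0284), while Gemin2 (0.89, 0.0572) and Gemin6 (0.62, 0.214) did not. Of 8 minor spliceosome genes Zmat5 (2.09) and Pdcd7 (1.01) were higher and none was lower. Of 14 SR partners and kinases 3 were lower and none was higher, namely Srrm1 (-1.57), Srrm2 (-1.25) and Acin1 (-1.18), and of 7 genes of the U1 periphery Luc7l2 was lower (-1.40). In the exon junction complex, Magoh was higher (1.71) and Casc3 lower (-1.01). Of the 23 genes named in these lists as having passed, 4 still passed when GFP-negative M was left out and 5 when GFP-positive 7 was, while 13 did so with the length trend subtracted and 14 under equal FPKM sums.

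**Figure D5:**
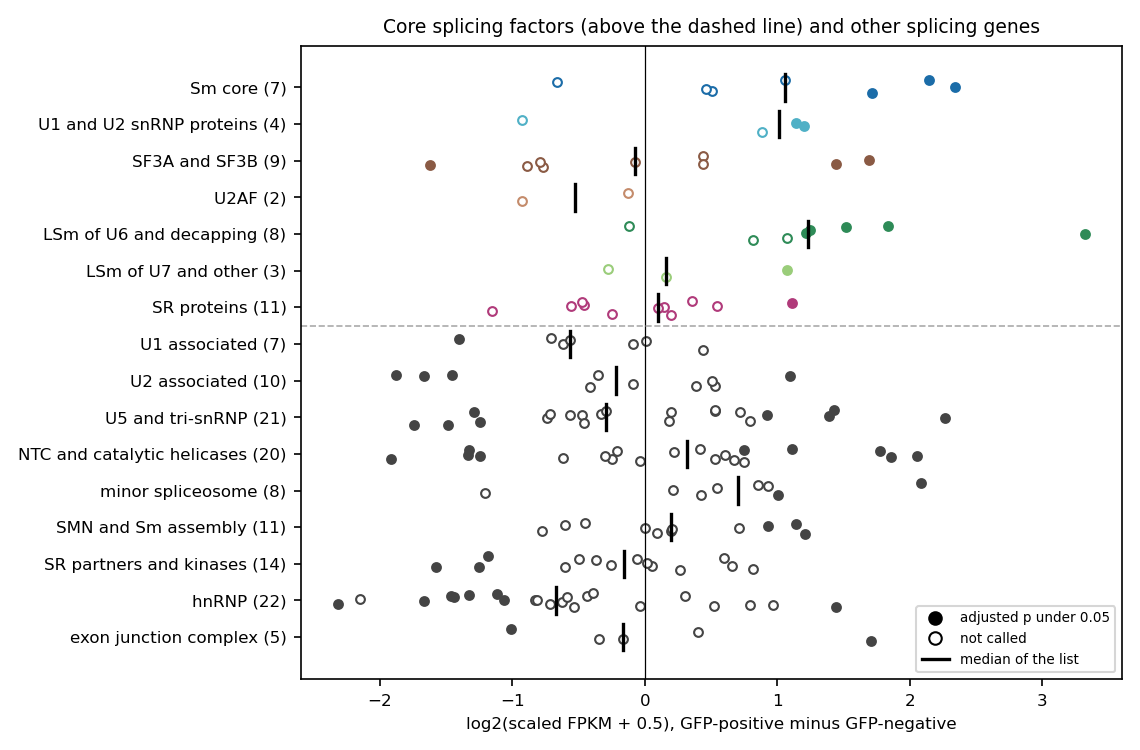
Log2 difference between the groups for each gene of the 7 roles (above the dashed line) and of 9 lists of other splicing genes (below it), with filled points for genes that passed and a bar at the median of each list. The medians lie at 1.06 for the Sm core and 1.23 for the LSm rings, and at -0.67 for the hnRNP genes.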

How the data were processed

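Per the labels' protocols, DNase-treated total RNA was depleted of ribosomal RNA and made into strand-specific (dUTP) libraries. Trimmomatic, HISAT2, StringTie and build mm39 are named in the submitters' processing notes, without versions. No source used here gives their strand setting, and levels of genes that overlap on opposite strands are uncertain. The authors deposited FPKM and mean coverage for the same 153503 transcripts in each library, per the file headers. No read counts were used, so values carry no counting interval; depth was taken from the ratio of coverage to FPKM as 8.25 to 11.8 Gb aligned.

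FPKM was summed over the named transcripts of a gene. Unnamed isoforms at named loci (7902 transcripts, 5.36% to 8.16% of a library's FPKM) were left out, and adding them was an alternative. Scaling of the libraries used the median ratio to the geometric mean over 12360 genes. Genes whose longest transcript was under 200 nt or whose mean scaled FPKM was under 0.5 were left out, which left 15095. limma 3.58.1 (R 4.3.3) was fitted to log2(scaled FPKM + 0.5) with a mean-variance trend and Benjamini-Hochberg adjustment over all genes, threshold 0.05, and checked on simulated data. In that check 0 of 67 genes changed by a log2 of 1 were called, 35 of 67 at 2 and 56 of 66 at 4. The simulation changed few of the 15095 genes, unlike these data. Genes with a log2 difference near 1 that did not pass cannot be read as unchanged. Tables used Python 3.11.15 with pandas 2.3.3, scipy 1.17.1 and matplotlib 3.10.9. Transcript types came from GENCODE annotation by transcript identifier (252 of 253 matched), with no coordinates taken from it.

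The symbol rule itself used no measured value, but the genes and lists were chosen with earlier results of these data known. Counts per list may therefore not be independent of the data. Values of all 6 libraries are given, per role, for up to 4 genes past the threshold by adjusted p and the 2 with the highest mean, for up to 3 genes past the threshold per list of other splicing genes, and for up to 8 transcripts. Srsf2, Srsf5 and other genes named beyond that were chosen after their values were seen. Besides leaving out each library, alternatives changed the scaling, filter, pseudocount, library weights, trend, threshold and length trend.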

Additional observations from a re-analysis of the deposited data

Results flagged for a closer look

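Newly assembled isoforms without a gene name were not part of the gene levels, and 7 of the 15 at the loci of these genes were above every GFP-negative library in every GFP-positive one with a GFP-positive mean of at least 0.5 scaled FPKM. Of all 6477 newly assembled isoforms at loci with 1 gene name, low ones included, 8.03% met the same criterion. Isoforms too low to reach that mean could not meet it, and the criterion asks for a level in the GFP-positive libraries only. The share at these loci therefore cannot be read as particular to these genes, and the difference between these shares was not tested. The Srsf2 isoform of 3721 nt was at 44.6, 55.6 and 49.5 scaled FPKM in the GFP-positive (mean 49.9) and at 23.7, 25.8 and 3.88 in the GFP-negative libraries, with a log2 difference of 1.84 (limma adjusted p = 0.125). The Srsf1 isoform of 8067 nt had a mean of 10.1 scaled FPKM in the GFP-positive libraries, against 2.80 in the others (1.75, limma adjusted p = 0.0460), and the one of 7178 nt a mean of 7.94, against 3.78. The Srsf7 isoforms of 2714 nt and 2257 nt had means of 11.3 and 8.91, against 4.06 and 2.85. The Srsf10 isoforms of 4259 nt and 6828 nt had means of 1.04 and 2.83, against 0.222 and 1.51. Among these isoforms the 8067 nt one of Srsf1 passed, at its adjusted p over 34518 transcripts.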

How the results depend on the processing

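No paired analysis was possible because the replicate labels of the groups (2, 4 and 7, and 9, 11 and M) share no number. All 15 calls kept their direction under every alternative tried. The median log2 difference over the 44 genes, 0.44, was -0.59 with an equal sum of FPKM, where the median over all genes was -0.87, and lay between 0.30 and 0.54 when 1 library was left out. Leaving out 1 library gave 5 to 23 calls among the 44 genes, 5 to 14 higher and 0 to 9 lower, then 4 to 55 calls among the 118 other splicing genes, 3 to 21 higher and 0 to 34 lower, and 0 to 29 calls among member transcripts. Without GFP-negative 11 and M, chosen after seeing the data and with GFP-negative 9 assumed to vary like the GFP-positive libraries, limma gave 0 calls among the 43 members tested, 19 at an unadjusted p under 0.05, and 0 among the other splicing genes and member transcripts; the median was 0.61.

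Counts of members called were 36 with array weights (23 higher, 13 lower; the weights stopped before they converged), 29 with weights fitted gene by gene, chosen after seeing the data (10 lower), where 73.5% and 55.1% of all genes tested passed, 7 with no filter (7 higher, 0 lower), where 3.22% of all passed, and 6 at the stricter threshold of 0.01 (6 higher, 0 lower). They were 3 higher and 15 lower with an equal sum, and 7 higher and 3 lower with the length trend removed. Quantile normalization gave 13 higher and 3 lower, where 23.5% of all passed (11.8% higher, 11.7% lower). FPKM as deposited gave 14 higher and 2 lower, where 25.4% of all passed (13.2% higher, 12.1% lower). The share of all genes at 0.01 is not given, so the count at that threshold has no background here. In the same order of the first settings, other splicing genes gave 97 (46 higher, 51 lower), 79 (38 and 41), 14 (7 and 7) and 5 (4 and 1) calls, then 62 with an equal sum (2 and 60) and 22 with the length trend removed (10 and 12). Member transcripts gave 51 and 37 calls with the 2 kinds of weights, 21 with an equal sum, and 0 with the length trend removed, with no filter and at 0.01. The shares of all transcripts called in those fits are not given, so these counts cannot be read as particular to the members.

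Signs turned for genes that had not passed, and for Clns1a. An equal sum shifted all genes (median -0.87), and under it Lsm4 was at -0.23, Sf3b1 at -0.61, Srsf3 at -0.95, Srsf6 at -0.50, Snrpb at -0.59, Snrpa at -0.15 and Clns1a at -0.0814, each above that median apart from Srsf3. With the length trend removed, Sf3b3 was at 0.29 and Snrpb at -0.0428. Sf3b3 was also at 0.15 and 0.0721 with the weights and at 0.14 without GFP-negative 11 and M; leaving out 1 library gave -0.20 (GFP-negative M) to 0.17 (GFP-negative 11). Srsf3 was at -0.28 after quantile normalization and between -0.0783 (without GFP-negative 9) and 0.30 (without GFP-negative 11) when 1 library was left out. U2af2 was between -0.68 (without GFP-negative 9) and 0.28 (without GFP-negative 11) when 1 library was left out and at 0.99 without GFP-negative 11 and M, where Lsm12 was at 0.0388 and Sf3b1 at -0.23. Apart from that shift of all genes, the cause was not tested. Over 55 named genes and transcripts, 766 of the comparisons with an alternative kept call and direction, 286 lost the call, 19 gained it and 21 turned. Per-base coverage of a gene was lowest for Srsf4 (3.12) and Srsf12 (3.37), which limits what can be read from their levels.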
